A study of Mus musculus with 6 samples.

Results

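The subunits of Polycomb repressive complex 1 (PRC1) were examined in undifferentiated mouse embryonic stem (ES) cells with and without Hira, the gene of a chaperone that deposits histone H3.3. The 10 members, Ring1, Rnf2, Pcgf1, Pcgf2, Pcgf6, Bmi1, Cbx2, Cbx7, Rybp and Kdm2b, were taken from a list of gene names, and every probe set that the platform annotation assigns to just one of these symbols was kept. All 10 were found, on 11 of 35557 probe sets, with 2 for Rybp and 1 for each other gene. All 11 passed the filter on low values. Pcgf2 and Cbx2 lie on chromosome 11, and no member lies on chromosome 8. These are the chromosomes whose genes read broadly lower in the Hira-null arrays. The study compared the parental wild-type ES cell line w9.5 (WT, 3 arrays) with Cl34, an ES cell line derived from Hira-/- cells (Hira-null, 3 arrays), on Affymetrix Mouse Gene 1.0 ST arrays. Both lines were grown in serum medium with ESGRO, a leukaemia inhibitory factor supplement. The series text states that cells were collected at several degrees of confluence, and no label gives the degree for an array. Cl34 is 1 line, so loss of Hira and other differences between the lines cannot be told apart. Nothing beyond the words "biological rep" states how the replicates were made, and a p-value here rests on the spread among arrays, part of which may be technical.

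PRC1 is an E3 ubiquitin ligase that places ubiquitin on histone H2A in silenced chromatin. Every form of it pairs RING1 or RNF2 with a PCGF protein. Canonical PRC1 holds PCGF2 or BMI1, a CBX protein that reads the methyl mark laid down by PRC2, and a PHC protein. Variant PRC1 holds RYBP or YAF2 in place of the CBX protein and is brought to DNA in other ways, for example by the CpG-binding KDM2B or, in the form built on PCGF6 and called PRC1.6, by MGA with MAX and by E2F6. In ES cells these complexes keep developmental and germline genes silent.

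All values are deposited log2 expression values or differences of them, Hira-null minus WT, and a level of one gene is not set against that of another. The array medians lay between 4.93 and 5.02. Hira itself read 7.49, 7.86 and 7.83 in the WT arrays and 7.40, 7.05 and 6.81 in the Hira-null ones, lower without overlap but short of the threshold (difference -0.64, SE 0.19, limma adjusted p = 0.352). Which part of the gene was deleted is not stated, so this probe set is a limited check of the labels. The pluripotency genes Pou5f1, Nanog, Sox2, Zfp42, Klf4, Esrrb, Tdgf1 and Utf1 read 7.98 to 11.86 on all arrays, and all 8 passed the filter. Their mean level was 10.1, 10.3 and 10.3 in the WT arrays and 10.5, 10.4 and 9.92 in the Hira-null ones. Of 8 fibroblast markers (Col1a1, Col1a2, Col3a1, Thy1, Vim, Fn1, Postn, Lum) 6 passed the filter, all but Postn and Lum, with a mean level over the 8 of 6.61, 6.18 and 6.09 in the WT arrays and 5.96, 6.13 and 6.41 in the Hira-null ones. Of 8 endoderm markers (Gata4, Gata6, Sox17, Foxa2, Dab2, Sparc, Lama1, Afp) 7 passed, all but Afp, with mean levels of 6.65, 6.31 and 6.26 against 5.86, 6.02 and 6.32. The 5 neural markers with a probe set (Pax6, Sox1, Nes, Neurog2, Tubb3) all passed, with mean levels of 5.99, 6.22 and 6.13 against 5.91, 5.93 and 5.36. Hira-null replicate 3 stands apart from the other arrays, holding the lowest value of 26.8% of 15199 genes and the highest of 25.5%.

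None of the 10 members passed the test between the lines. With limma, 0 members passed at an adjusted p of 0.05, where 0.00398% of 25142 probe sets did, and the members' adjusted p lay between 0.543 and 0.987. Before adjustment, 0 members had a p under 0.05, against 10.5% of the genes tested. The 3 WT and 3 Hira-null values overlapped for all 10 members, while 17.4% of genes had no overlap, 7.8% being higher and 9.55% lower. A set of 10 genes at these background shares would hold few such genes, so the counts of 0 alone say little. Differences were small in size. For 9 of 10 members they were under 0.15, or 1.11-fold, and the median size was 0.10, against 0.15 over all genes tested. Of the members, 6 read higher and 4 lower, with a median of 0.07, and the median over all genes was -0.01. The 95% confidence intervals of 8 members lay within 0.5 of no difference, which is 1.41-fold. Those of Pcgf1 and Pcgf6 reached further. With 3 arrays a line, precision is limited by their number.

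**Figure D1:**
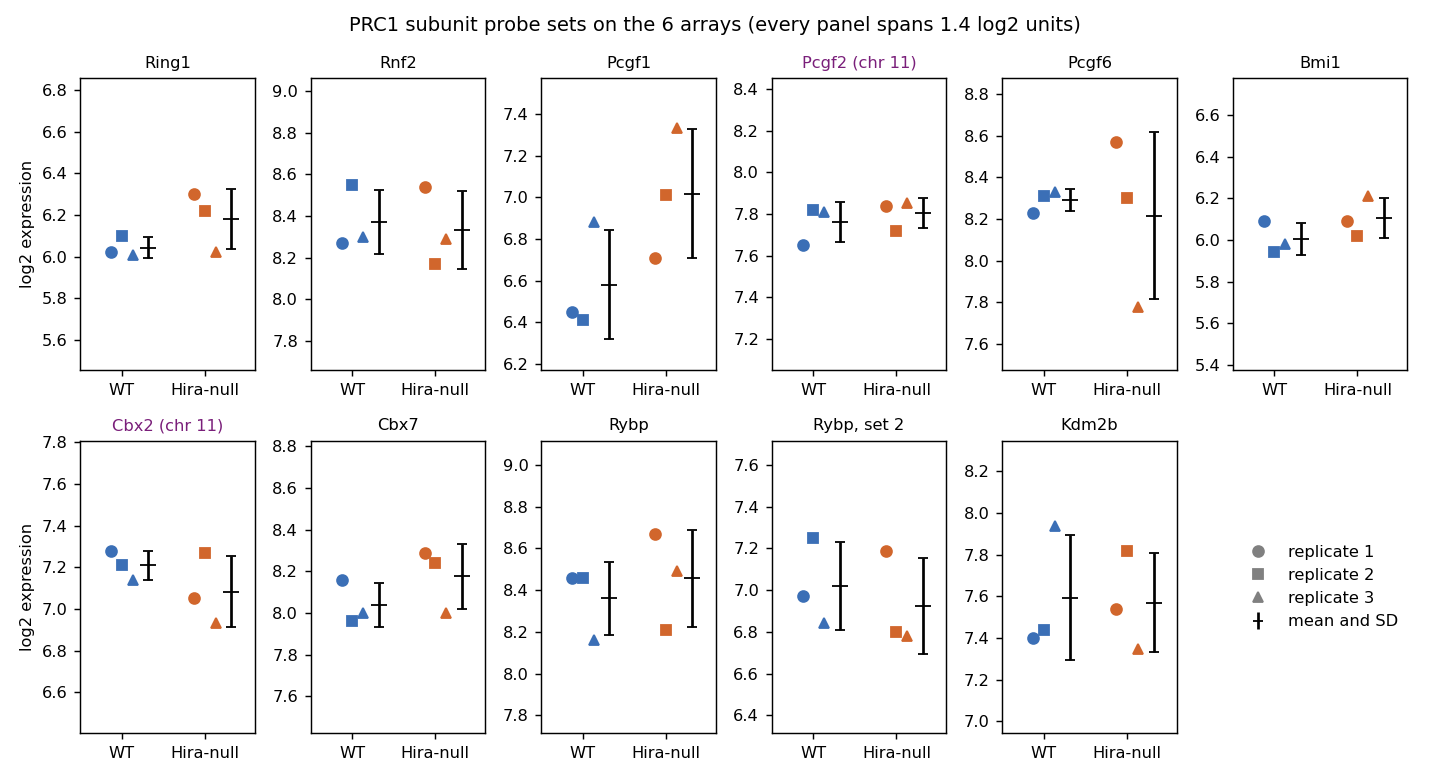
Deposited log2 value (vertical axis) of each of the 11 probe sets in the 3 WT (blue) and 3 Hira-null (orange) arrays, with the mean and SD of each line beside the points. Each panel spans the same number of log2 units around its own centre. The lines overlap in every panel, and Pcgf1 and Pcgf6 have the widest spread.

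The catalytic RING subunits gave small differences that did not pass. Ring1, which encodes the less abundant of the RING ligases in ES cells, read 6.02, 6.10 and 6.01 in the WT arrays and 6.30, 6.22 and 6.02 in the Hira-null ones. Hira-null replicates 1 and 2 were above all WT arrays and replicate 3 lay among them. The difference was 0.14 (SE 0.13, limma adjusted p = 0.806). Rnf2, which encodes RING1B, the main H2A ubiquitin ligase of ES cells, read 8.27, 8.55 and 8.30 in the WT arrays and 8.54, 8.17 and 8.29 in the Hira-null ones. Its values were interleaved, with a difference of -0.04 (SE 0.15, 95% interval -0.40 to 0.32). As a fold change, the interval for Rnf2 runs from 0.757-fold to 1.25-fold. It rests on the spread among these arrays of 2 lines and does not bound the effect of losing Hira.

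Among the PCGF genes, which set the type of complex, Pcgf2 and Bmi1 of canonical PRC1 were the steadiest. Pcgf2, also known as Mel18, read 7.65, 7.82 and 7.81 in the WT arrays and 7.84, 7.72 and 7.85 in the Hira-null ones. These 6 values span 0.20, the narrowest range of the 10 members. The difference was 0.04 (SE 0.12, 95% interval -0.24 to 0.33). Bmi1, the paralogue that is also known for its part in adult stem cells, read 6.09, 5.94 and 5.98 in the WT arrays and 6.09, 6.02 and 6.21 in the Hira-null ones, a difference of 0.10 (SE 0.12, 95% interval -0.19 to 0.39). The spread within lines was 0.085 for Pcgf2 and 0.087 for Bmi1 as a pooled SD. Of the genes tested, 6.31% and 7.07% had a smaller one. Over the 10 members the median of this SD was 0.15, against 0.20 over all genes.

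The windows before an annotated start of Bmi1 and of Pcgf2 share sequence features that the choice of members did not use. They are printed because these are the 2 alternative PCGF genes of canonical PRC1. Whether either window regulates its gene, or bears on its steady values, was not tested. RefSeq windows (build GRCm38.p6) were at hand for 7 members, 10 windows in all since some have several starts, and the 250 bases before the annotated start were searched on both strands for CACGTG, the E-box bound by MAX and its partners, and for GCCATNTT, the core of sites bound by YY1. Capitals mark both motifs, which do not overlap each other. The Bmi1 window lies at chr2:18676768-18677017 on the plus strand and the Pcgf2 window at chr11:97699649-97699898 on the minus strand, each ending at the base before the annotated start. The Bmi1 window lies outside the gene. The Pcgf2 window lies inside the annotated span of its gene (chr11:97688821-97702434), which starts further upstream, and whether it is exonic or intronic there was not analysed here. No window at that upstream end was searched.
Bmi1: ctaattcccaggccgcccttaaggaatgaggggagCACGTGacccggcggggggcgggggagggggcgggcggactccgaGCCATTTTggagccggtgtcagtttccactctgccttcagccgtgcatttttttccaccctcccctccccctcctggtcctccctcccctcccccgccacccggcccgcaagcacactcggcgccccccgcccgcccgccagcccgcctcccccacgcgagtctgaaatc
Pcgf2: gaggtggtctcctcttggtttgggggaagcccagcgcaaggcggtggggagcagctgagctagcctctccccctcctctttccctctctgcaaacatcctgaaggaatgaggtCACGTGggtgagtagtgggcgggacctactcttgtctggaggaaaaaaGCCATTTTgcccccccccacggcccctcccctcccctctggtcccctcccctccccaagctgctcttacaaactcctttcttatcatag
Each window holds both motifs once and in the same order. The E-box starts 215 bases before the start of Bmi1 and 137 before that of Pcgf2, and the other motif starts 45 and 48 bases further on. Just before the E-box both also hold the run aaggaatgagg, of 11 bases. It is not the longest shared run, since both hold ccctcccctcccc, of 13 bases, elsewhere, and ctccccctcct also has 11. How often a pair of windows shares such runs was not tested. CACGTG is found in the windows of 6.86% of 27025 genes, GCCATNTT in 4.49%, and both in 0.381%. The Bmi1 window holds 21 CpG and the Pcgf2 window 5, against a median of 6 over all genes. As CACGTG holds a CpG, the shares that count it are not a like background for Bmi1. Of the 7 members with a window, Bmi1 and Pcgf2 were the ones to hold either motif. The others were Rnf2, Kdm2b, Cbx7, Ring1 and Pcgf6, and no window was used for Pcgf1, Rybp and Cbx2. Of 9 further PRC1 subunits with a window, CACGTG was in those of Cbx6, Cbx8, Phc2 and Phc3, and of 16 partners in those of Bcorl1 and Tfdp1. The motifs were chosen after these sequences had been read, and a match is a run of letters, not a measured site.

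Pcgf1 and Pcgf6, of variant complexes, varied more. Pcgf1 encodes the partner of KDM2B and BCOR. It read 6.45, 6.41 and 6.88 in the WT arrays and 6.71, 7.01 and 7.33 in the Hira-null ones. Hira-null replicates 2 and 3 were above every WT array, and replicate 1 was below WT replicate 3. The difference of 0.44 (SE 0.21), or 1.35-fold, was the widest of the 10 members, and it did not pass (limma unadjusted p = 0.0740, adjusted p = 0.543, 95% interval -0.06 to 0.93). It was 0.28 without Hira-null replicate 3 and 0.22 when WT replicate 1 was left out too, against 0.59 without Hira-null replicate 1.

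Pcgf6 encodes the PCGF protein of PRC1.6 and read 8.23, 8.31 and 8.33 in WT. The Hira-null arrays read 8.57, 8.30 and 7.78. WT was thus tight, with an SD of 0.053, and the Hira-null arrays lay on both sides of it, with an SD of 0.40. The difference of -0.07 (SE 0.21, limma adjusted p = 0.949) rests on Hira-null replicate 3, since without that array it was 0.15.

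The CBX subunits of canonical PRC1 overlapped between the lines. Cbx7, the main CBX gene of undifferentiated ES cells, read 8.16, 7.96 and 8.0 in the WT arrays and 8.29, 8.24 and 8.0 in the Hira-null ones. Hira-null replicates 1 and 2 were above all WT arrays and replicate 3 was not. The difference was 0.14 (SE 0.14, 95% interval -0.19 to 0.46). Cbx2, which is known to compact chromatin and to come up as ES cells differentiate, read 7.28, 7.21 and 7.14 in the WT arrays and 7.05, 7.27 and 6.93 in the Hira-null ones. Hira-null replicates 1 and 3 were below all WT arrays and replicate 2 was among them. The difference of -0.13 (SE 0.14, limma adjusted p = 0.844) was the lowest of the 10 members.

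The variant subunits Rybp and Kdm2b had values that crossed between the lines. Rybp encodes a zinc finger protein named for binding RING1 and YY1. Its brighter probe set (10546706) read 8.46, 8.46 and 8.16 in the WT arrays and 8.67, 8.21 and 8.49 in the Hira-null ones, a difference of 0.10 (SE 0.17). The other one (10410209) read 6.97, 7.25 and 6.84 in the WT arrays and 7.19, 6.80 and 6.78 in the Hira-null ones, a difference of -0.10 (SE 0.17). The pair differ in sign and neither passed (limma adjusted p = 0.914 and 0.917). The identifier 10410209 falls in a run of identifiers of chromosome 13 genes and next to a probe set for Cbx3 (10410207), although Rybp lies on chromosome 6. Whether that probe set reads Rybp or a near-identical copy is not settled here. Kdm2b encodes the CpG-binding histone demethylase that brings PCGF1 complexes to CpG islands. It read 7.40, 7.44 and 7.94 in the WT arrays and 7.54, 7.82 and 7.35 in the Hira-null ones, with WT replicate 3 and Hira-null replicate 2 high and a difference of -0.02 (SE 0.20, 95% interval -0.50 to 0.45).

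The genes most like the 3 members with the widest range over the 6 arrays were found by Pearson correlation over those arrays among the 15199 genes, as a description. With 6 arrays that share 2 lines many genes reach a high value. For Pcgf1 they were Baz2b (r = 0.99), Pcyox1l (0.99) and Zmym3 (0.99), with 218 genes above 0.9. For Pcgf6 they were Zscan30 (0.99), B4galnt3 (0.99) and Slc4a1ap (0.99), with 504 above 0.9. For Kdm2b they were Parp14 (0.98), Mettl3 (0.98) and Lrriq4 (0.97), with 63 above 0.9.

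The 2 members on chromosome 11 were set beside the other genes of that chromosome. Of 1351 measured genes there, 1115 (82.5%) read lower in Hira-null arrays, with a median of -0.24. There 33.2% were lower without overlap and 27% lower at an unadjusted p under 0.05, and Pcgf2 and Cbx2 were neither. Pcgf2, at 0.04, lay above 86.5% of these genes, and Cbx2, at -0.13, above 65.5%. Among chromosome 11 genes with a mean level within 0.5 of the member, the median was -0.43 for the 221 genes near Pcgf2 and -0.40 for the 219 near Cbx2. Pcgf2 lay above 92.8% and Cbx2 above 84.0% of them. After the chromosome's median deviation was taken off each array, Pcgf2 stood at 0.27 (limma unadjusted p = 0.0675, adjusted p = 0.607) and Cbx2 at 0.10 (adjusted p = 0.899). Neither gene passed after this correction, which takes off the median over all measured genes of the chromosome. The genes of like level had a lower median, and a departure from those was not tested.

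The genes next to Pcgf2 and Cbx2 were mixed. On one side of Pcgf2 stood Mllt6 (-0.01), Epop (0.25), whose product binds PRC2, and Srcin1 (0.12), all with overlapping lines. On the other side, the proteasome gene Psmb3 (-0.42), the lipid kinase gene Pip4k2b (-0.49) and the splicing factor gene Cwc25 (-0.40) stood below 0, and none passed (limma adjusted p = 0.508, 0.275 and 0.637). Of these, Pip4k2b had no overlap, at 7.65, 7.85 and 7.77 in WT against 7.26, 7.17 and 7.36. Cbx2 is followed by Cbx8, a further CBX gene of canonical PRC1, at -0.16, then Tbc1d16 at 0.16 and Ccdc40 at 0.06. Before it come Enpp7 (-0.06), Rbfox3 (-0.09) and Engase (-0.38). Engase, a deglycosylating enzyme gene, had no overlap either, at 6.62, 6.41 and 6.67 against 6.30, 6.29 and 5.97 (limma adjusted p = 0.457).

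**Figure D2:**
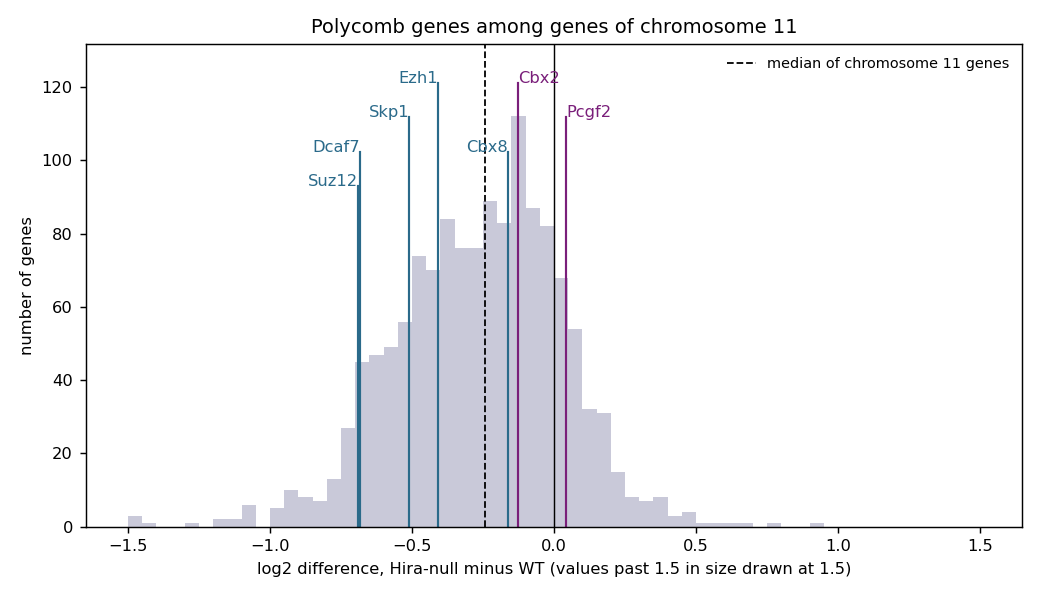
Number of chromosome 11 genes (vertical axis) by log2 difference, Hira-null minus WT (horizontal axis), with the dashed line at their median of -0.24. Pcgf2 and Cbx2 (purple) lie to the right of that median, and Dcaf7, Skp1, Suz12 and Ezh1 (blue) to its left, with Cbx8 at -0.16.

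Further subunits and partners of PRC1 were taken from 2 lists. Of the other subunits, 9 were tested. Of these, 0 passed in either direction and 0 had an unadjusted p under 0.05, with 3 at higher and 6 at lower values and a median of -0.04, beside -0.01 over all genes. Those with the smallest p were Phc3, of the polyhomeotic scaffold, at 0.42, Pcgf5 at -0.46, Scml2 at -0.28 and Cbx8 at -0.16. The Phc3 value follows Hira-null replicate 3, at 7.27, with 6.02 to 6.35 in the other 5 arrays. The Pcgf5 value follows WT replicate 1, at 7.56 against 6.22 to 6.89 in the other 5 arrays.

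Of 17 partners of variant PRC1, 16 were measured, and Csnk2b was without a probe set of its own. None passed (0 of 16), 10 read higher and 6 lower, and 1 had an unadjusted p under 0.05, against 6.29% of all genes that were lower at that level. This was Dcaf7, a WD40 scaffold protein gene of PCGF3 and PCGF5 complexes, on chromosome 11, where 27% of genes were lower at that level. It read 8.97, 9.12 and 8.97 in the WT arrays and 8.42, 8.30 and 8.29 in the Hira-null ones, so the lines were clear of each other. The difference was -0.68 (SE 0.12), or 1.61-fold lower (limma unadjusted p = 7.4e-04, adjusted p = 0.220). Skp1, an adaptor of KDM2B complexes on the same chromosome, was lower without overlap as well, at 9.47, 9.68 and 9.67 against 9.37, 9.45 and 8.47 (difference -0.51, adjusted p = 0.592), and its difference was -0.20 without Hira-null replicate 3. E2f6, a DNA-binding subunit of PRC1.6, was higher without overlap, at 6.92, 6.91 and 6.92 against 7.09, 7.02 and 7.28 (difference 0.21, adjusted p = 0.637). Thus 3 of the 16 had no overlap, beside 17.4% of all genes. On chromosome 11, where Dcaf7 and Skp1 lie, 33.2% of genes were lower without overlap. Tfdp1, the partner of E2F6, lies on chromosome 8 and stood at -0.30, and Max, on chromosome 12, at 0.33. Over both lists, the 4 genes on chromosomes 8 and 11 all read lower, with a median of -0.41. The 21 genes elsewhere had 8 at lower values and a median of 0.06.

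**Figure D3:**
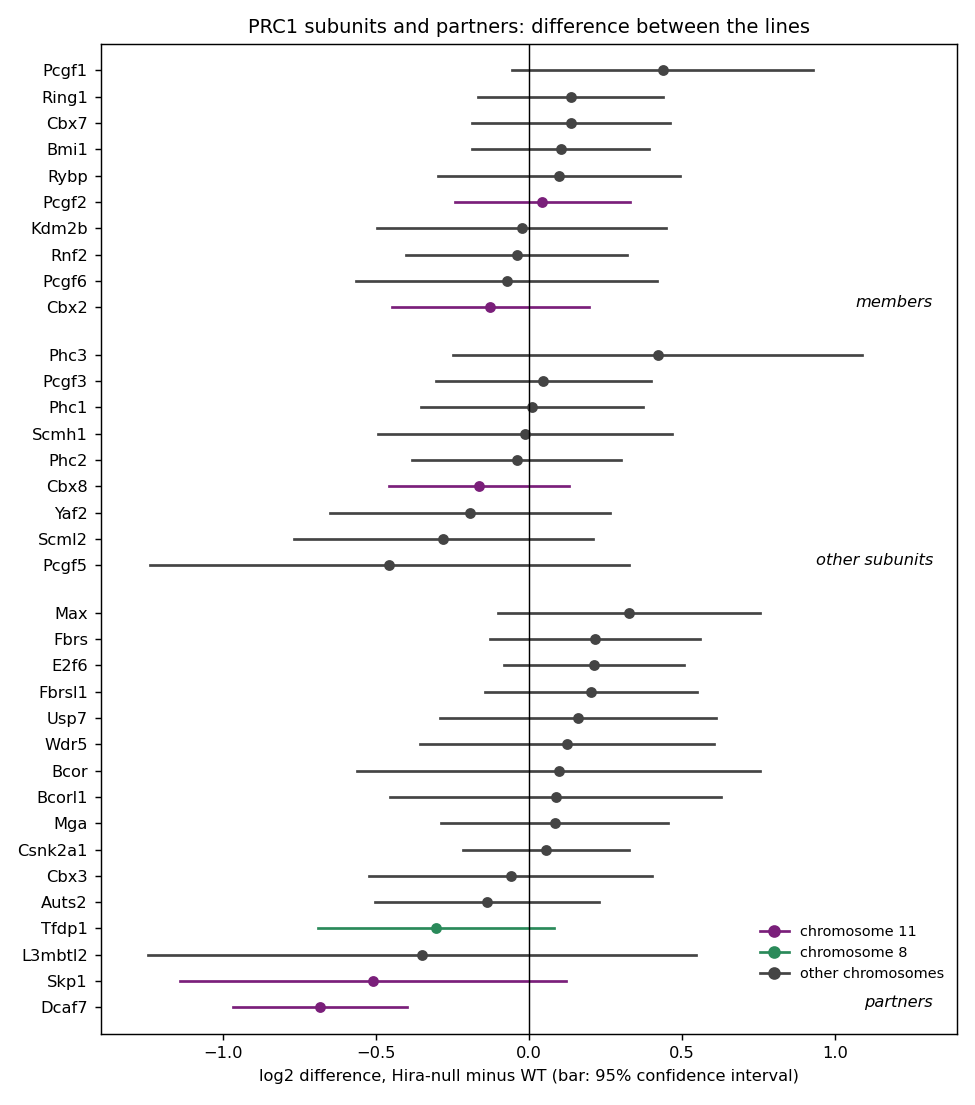
Log2 difference between the lines (horizontal axis, point) with its 95% confidence interval (bar) for the 10 members, 9 other subunits and 16 partners, coloured by chromosome. The intervals of all genes but Dcaf7 include 0, and the 10 members lie between -0.13 and 0.44.

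Enzymes that remove H2A ubiquitin, and the subunits that go with them, had 3 of 6 at higher values and 0 that passed. Bap1, the main such enzyme of ES cells, stood at -0.06, Asxl1 at -0.14, Asxl2 at 0.51, Asxl3 at 0.30, Usp16 at -0.43 and Mysm1 at 0.14. For PRC2, whose methyl mark the CBX proteins bind, the core genes stood at -0.69 for Suz12 and -0.41 for Ezh1, both on chromosome 11, and at 0.61 for Eed and 0.09 for Ezh2. Suz12 and Eed had no overlap between the lines, beside 17.4% of all genes, and neither passed (limma adjusted p = 0.275 and 0.414). On chromosome 11, that of Suz12, 33.2% of genes were lower without overlap. The difference of Eed was 0.37 without WT replicate 1.

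Genes known as PRC1 targets were read in 2 groups. Of the developmental targets, 14 were tested, and Olig2 and Zic1 lay below the filter. None of the 14 passed, with 7 at higher and 7 at lower values and a median of 0.01. This balance depends on genes of low value. With a stricter filter, at 4.99, 7 genes were left, 2 higher and 5 lower, with a median of -0.18. Of the 14, 1 was higher and 2 lower at an unadjusted p under 0.05, and 2 higher (Hoxd11, Hoxd13) and 2 lower (Pax6, Gata6) without overlap, beside 10.5% and 17.4% of all genes. Those with the smallest p were the eye and neural factor gene Pax6 (-1.21, SE 0.18, adjusted p = 0.220), the endoderm factor gene Gata6 (-0.55), Hoxd11 (0.31) and the cell cycle inhibitor gene Cdkn2a (-0.42), a classical target of BMI1. Hoxb13, on chromosome 11, stood at 0.12. Over the 6 arrays Hoxd11 read 4.73 to 5.23 and Hoxd13 4.65 to 4.85, where the filter value was 3.78. Pax6 read 5.80, 6.01 and 5.89 in the WT arrays and 4.96, 4.75 and 4.37 in the Hira-null ones, so its lines were clear of each other. Gata6 is also an endoderm marker and Pax6 a neural one, and both are counted among the markers that follow. Of 7 endoderm markers, 6 read lower, with a median of -0.37. Of the 7, 3 were lower without overlap (Gata6, Dab2 at -0.83 and Lama1 at -0.59), beside 9.55% of all genes. Without WT replicate 1, Gata6 stood at -0.37, Dab2 at -0.455 and Lama1 at -0.52. The 5 neural markers were mixed, with a median of -0.18. Pax6 itself, Nes at -0.87 and Tubb3 at -0.18 read lower, and Sox1 at 0.20 and Neurog2 at 0.17 higher. Tubb3 stood at 0.40 without Hira-null replicate 3. None of these passed with limma (smallest adjusted p = 0.220, for Pax6), and the part of such cells in the values of Gata6 and Pax6 was not tested. In bulk RNA, fewer cells of a type and less RNA per cell cannot be told apart.

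Germline genes known to be silenced by PRC1.6 read higher, without passing the test. Of 12 tested, 10 stood at higher values, with a median of 0.60 beside -0.01 over all genes. At an unadjusted p under 0.05, 4 were higher, where 4.17% of genes were, and 0 lower, and the same 4 were higher without overlap, where 7.8% of genes were. Earlier results of these arrays had shown germline genes to read higher, so this list adds no independent support. Mael, of the piRNA pathway, read 6.65, 6.28 and 6.39 in the WT arrays and 7.46, 7.62 and 8.74 in the Hira-null ones, a difference of 1.5 (SE 0.33, limma adjusted p = 0.234). Taf7l, a testis form of a general transcription factor, read 5.0, 4.19 and 4.48 against 5.79, 5.65 and 7.90. Slc25a31, a testis nucleotide carrier gene, read 5.73, 5.11 and 5.49 against 6.10, 6.04 and 7.07. The other was Stk31, at 0.65. Hira-null replicate 3 was the highest array for 11 of the 12, and WT replicate 2 the lowest for 10. The list's median deviation from the gene means was 0.06, -0.56 and -0.39 in the WT arrays and 0.14, 0.05 and 0.82 in the Hira-null ones, so WT replicate 1 overlapped the Hira-null arrays. The list's median difference was 0.37 without Hira-null replicate 3, and the count at an unadjusted p under 0.05 was then 4 again. That count was 9 without WT replicate 1, 2 without WT replicate 2, 3 without WT replicate 3 and 6 without Hira-null replicate 2, where the medians were 0.78, 0.43, 0.48 and 0.74.

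The windows before the start of 3 of these genes are printed because MGA and MAX of PRC1.6 bind the E-box. They are the 3 with the smallest p. Capitals again mark CACGTG and GCCATNTT. The windows lie at chr1:166238745-166238994 (minus strand) for Mael, chrX:134476491-134476740 (minus strand) for Taf7l and chr3:40708621-40708870 (plus strand) for Slc25a31, in GRCm38.p6 from RefSeq. Those of Mael and Slc25a31 lie outside the gene, and that of Taf7l overlaps the end of its annotated gene span by a few bases.
Mael: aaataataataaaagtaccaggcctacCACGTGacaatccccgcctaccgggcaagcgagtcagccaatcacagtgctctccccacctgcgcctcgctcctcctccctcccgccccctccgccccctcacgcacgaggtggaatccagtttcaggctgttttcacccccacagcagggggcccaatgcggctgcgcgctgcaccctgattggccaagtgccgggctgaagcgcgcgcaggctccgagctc
Taf7l: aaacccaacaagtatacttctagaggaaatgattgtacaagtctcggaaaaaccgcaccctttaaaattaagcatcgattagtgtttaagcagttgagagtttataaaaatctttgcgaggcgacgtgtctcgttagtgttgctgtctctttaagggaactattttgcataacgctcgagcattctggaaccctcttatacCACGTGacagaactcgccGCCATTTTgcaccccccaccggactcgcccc
Slc25a31: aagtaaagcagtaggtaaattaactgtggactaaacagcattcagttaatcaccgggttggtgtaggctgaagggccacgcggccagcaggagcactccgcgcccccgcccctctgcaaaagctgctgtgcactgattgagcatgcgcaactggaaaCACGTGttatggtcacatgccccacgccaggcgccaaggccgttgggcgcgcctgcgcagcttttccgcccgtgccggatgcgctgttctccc
CACGTG starts 223, 49 and 93 bases before the start in these 3. Of the 12 germline genes 8 hold it, beside the 6.86% of all genes. That share is not a like background, since CACGTG holds a CpG. The windows of the 12 hold 12 to 31 CpG, against a median of 6 over all genes. The list is also one of known PRC1.6 targets, so nothing is drawn from this count. The others with CACGTG are Ddx4, Hormad1, Stag3, Stk31 and Sycp3. Hormad1 and Sycp3 hold it 2 times. Sycp3, of the synaptonemal complex, stood at 1.27 with overlapping lines, and Hormad1 at -0.04 with its brighter probe set and 0.41 with its other one. Among developmental targets, 4 of the 10 genes with a window hold it.

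The transcripts of PRC1.6 itself did not pass the test. Beside Pcgf6, the genes L3mbtl2, E2f6, Mga, Max, Tfdp1, Wdr5 and Cbx3 were read, a selection made after the values had been seen. The 8 differences ran from -0.35 to 0.33 with a median of 0.01, and 0 passed (smallest adjusted p = 0.605). In Hira-null replicate 3, where the germline genes were highest, the lowest value was that of Pcgf6, L3mbtl2, Tfdp1, Wdr5 and Cbx3, which is 5 of these 8, beside 26.8% of all genes. With Ring1, Rnf2, Rybp and Yaf2, which PRC1.6 shares with other variant complexes, it is 5 of 12. As the 8 were picked with their values known, nothing is drawn from this count. L3mbtl2, a chromatin-compacting subunit, read 7.60 there and 8.13 to 9.07 on the other 5 arrays. Cbx3, which encodes the heterochromatin protein HP1 gamma, read 9.19 there against 9.62 to 9.84 elsewhere, and its 7 probe sets, some of which may read near-identical copies, gave differences of -0.16 to -0.06. E2f6 was at its highest there, at 7.28 against 6.91 to 7.09. Hira-null replicate 3 also had the lowest mean level of pluripotency and neural markers. The part of these in the PRC1.6 values was not tested.

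**Figure D4:**
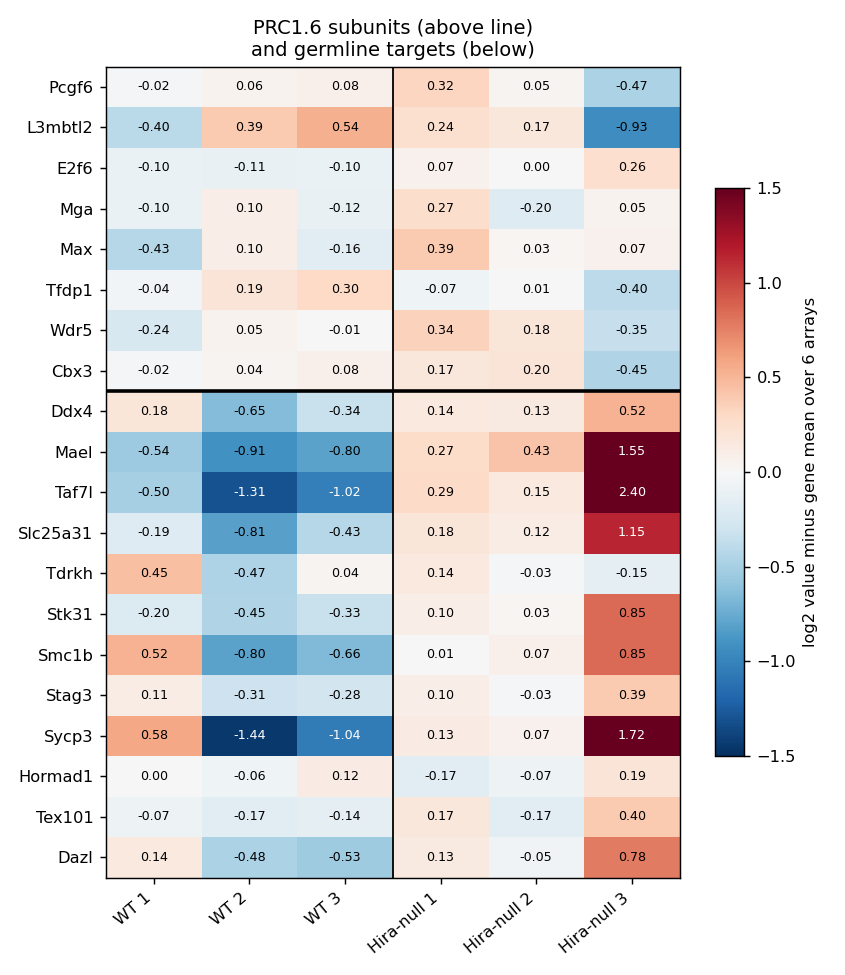
Log2 value minus the gene's mean over the 6 arrays (colour and printed number) for 8 PRC1.6 subunits and partners, above the line, and 12 germline targets, below it, with 1 column per array. Hira-null replicate 3 is the highest array for 11 germline genes, and the 8 differences of the PRC1.6 genes lie between -0.35 and 0.33.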

How the data were processed

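RNA of 3 WT and 3 Hira-null samples was measured on 1-colour arrays. The log2 expression values are those deposited by the authors, and GCRMA is named in the submitters' processing notes, without a version. That the scale is log2 was inferred from their range, and array medians of 4.93 to 5.02 show that arrays had been normalized to each other, which would hide any shift common to most genes. The genome build behind them is not given in the sources used here, and background signals were not analysed here.

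Of 35557 probe sets, 21789 had 1 symbol, 1621 had several and 12147 are unnamed here. Symbols and chromosomes were updated through Entrez identifiers with RefSeq genes of GRCm38.p6, which matched 21698. Probe sets with at least 3 arrays above 3.78, the 30th percentile, were kept (25142), standing for 15199 genes, each by the brightest of its probe sets. The lines were compared with limma 3.58.1 in R 4.3.3 (lmFit and eBayes, two-sided, without covariates). P-values were adjusted by Benjamini-Hochberg over all 25142 probe sets, and the fit was checked on simulated data. No p was adjusted over a list alone. The members and gene lists were chosen with earlier results of these data known.

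Named genes are every member, Hira, all genes of lists of up to 8 genes, the 4 with the smallest p and those on chromosomes 8 and 11 of longer lists, 3 neighbours on either side of Pcgf2 and Cbx2, and the 3 genes most like each of the 3 most variable members. Alternatives were 2 filters, 2 normalizations, 2 eBayes settings, array weights, the replicate block, left-out arrays, a chromosome correction and the mean over probe sets.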

Additional observations from a re-analysis of the deposited data

How the results depend on the processing

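No member of PRC1 was called under any alternative that gives a p (0 of 10 in each), with a smallest adjusted p of 0.48, for Pcgf1 with the stricter filter. Pcgf1 kept its sign throughout, from 0.22 to 0.59, as did Ring1, Bmi1 and Cbx7. With the replicate number as a block, 1 member had an unadjusted p under 0.05 (Pcgf1, limma adjusted p = 0.549) and 0 probe sets were called. Leaving out 1 array gave 0 to 1 members at that level, 1 to 2 other PRC1 genes and 0 to 41 called probe sets, the 41 without Hira-null replicate 2. Called probe sets were 2 with the stricter filter, 2 with median centring, 5 with array weights and 0 when WT replicate 1 and Hira-null replicate 3 were both left out, against 1 as reported. Members near 0 changed sign. With array weights Pcgf2 stood at -0.011 and Pcgf6 at 0.012, without both those arrays at -0.035 and 0.115, and Cbx2 stood at 0.10 with the chromosome correction, which takes off the shift of its chromosome. Over the left-out arrays the ranges were -0.14 to 0.048 for Rnf2, -0.012 to 0.085 for Pcgf2, -0.25 to 0.15 for Pcgf6, -0.01 to 0.22 for Rybp and -0.15 to 0.15 for Kdm2b. The cause of the other changes was not tested. The mean over the 2 Rybp probe sets was 0. Whether the replicate numbers pair the samples is not stated. The deviations of same-numbered arrays correlated at -0.34, 0.17 and -0.10, and those of different numbers between -0.41 and 0.44. These values cannot settle it, since deviations from a mean of 3 arrays are bound to each other.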
